A study of Homo sapiens with 6 samples.

Results

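The 10 genes described here encode the core of TGF-beta signaling: the ligands *TGFB1* and *TGFB2*, the receptors *TGFBR1*, *TGFBR2* and *TGFBR3*, the receptor-regulated *SMAD2* and *SMAD3*, the common *SMAD4*, and the inhibitory *SMAD6* and *SMAD7*. They were chosen by gene symbol from the 58302 genes of the deposited table, as a set proposed with earlier results of these data known, and all 10 were found and passed the filter on low counts that left 15847 genes for the test. RNA-seq was made from A549, an established human lung adenocarcinoma cell line. In 3 libraries the cells had received DMSO, the solvent control, and in the other 3 they had received the compound S541 (also called 5n) at 1.0 µM, with 48 h of exposure. Cells of both groups were grown in medium with fetal bovine serum and antibiotics, and no dose or time other than these was compared. Whether the replicates were grown as separate cultures is not stated in the labels. The p-values therefore only set the difference between groups against the spread of these libraries, and that spread may be technical.

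TGF-beta ligands are secreted in a latent form and, once released, bind the type II receptor TGFBR2, which recruits and activates the type I receptor TGFBR1. TGFBR3 (betaglycan) is a co-receptor that presents ligand, in particular the TGFB2 protein, to the signaling receptors. The activated type I receptor phosphorylates SMAD2 and SMAD3, which join SMAD4 and regulate genes in the nucleus, whereas SMAD6 and SMAD7 inhibit the pathway and are themselves known to be induced by it. In lung epithelial cells, A549 among them, the pathway is known for growth arrest and for epithelial-mesenchymal transition. RNA levels do not report on the activation of the ligands or the phosphorylation of the SMAD proteins.

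Total counts ranged from 13956648 to 17044139 per library. The first principal component (38.9% of the variance) separated the groups, and on the second (21.4%) DMSO replicate 2 and S541 replicate 3 stood apart from the other 4 libraries. The design text of the series calls the profiles retinal, while each label names A549. The 5 retinal markers summed to at most 1.32 CPM (counts scaled to the library total, with TMM factors), with *CRX* at 0 in all 6 libraries. The 6 epithelial markers summed to 3790 to 4369 CPM with DMSO and 3215 to 3712 CPM with S541, and 4 of them were at 1 CPM or more in every library. Within that list *KRT8* and *KRT18* fell (log2 fold change −0.50 and −0.63). *CDH1*, which encodes E-cadherin, did not pass (log2 fold change −0.92), at 0.945 to 1.149 CPM with DMSO and 0.491 to 0.626 CPM with S541. The other 3 epithelial markers did not pass either. Their log2 fold changes were above 0, with *KRT7* at 0.25, *EPCAM* at 0.22 and *KRT19* at 1.71. *KRT19* stood at 0.135 to 0.480 CPM with DMSO and 0.771 to 1.56 CPM with S541. Markers of other cells were low. The 6 fibroblast markers summed to 38.5 to 57.8 CPM with DMSO and 31.7 to 37.0 CPM with S541, most of it *COL1A1*, with *LUM* at 0. Next in that list was *PDGFRB*, which fell (5.20 to 8.40 CPM with DMSO, 2.94 to 4.14 CPM with S541, log2 fold change −0.96), and the part of these markers in the results was not tested. The 4 leukocyte markers summed to at most 3.06 CPM with *CD3E* at 0, the 4 endothelial markers were nearly all *CDH5*, and the 6 alveolar markers reached at most 1.13 CPM with *SFTPA1* and *SFTPD* at 0. Since CPM is a share of a bulk library, fewer cells with a transcript and less of it per cell cannot be told apart.

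After S541 the receptor-regulated *SMAD2* and *SMAD3* rose and the inhibitory *SMAD7* and the co-receptor *TGFBR3* fell, each by less than 1.5-fold. The ligands, the signaling receptors, *SMAD4* and *SMAD6* did not pass the test. Thus 2 of the 10 genes rose and 2 fell at an adjusted p under 0.05 (edgeR quasi-likelihood test, 2-sided, adjusted by Benjamini-Hochberg over all tested genes), where 8.19% of all tested genes passed, 4.02% rising and 4.17% falling. In 6 of the 10 the 2 groups did not overlap in CPM, 3 higher and 3 lower with S541, against 31.1% of all tested genes (15.9% higher and 15.2% lower). The median log2 fold change of the 10 genes was 0.00024, and that of all tested genes was −0.0019.

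**Figure D1:**
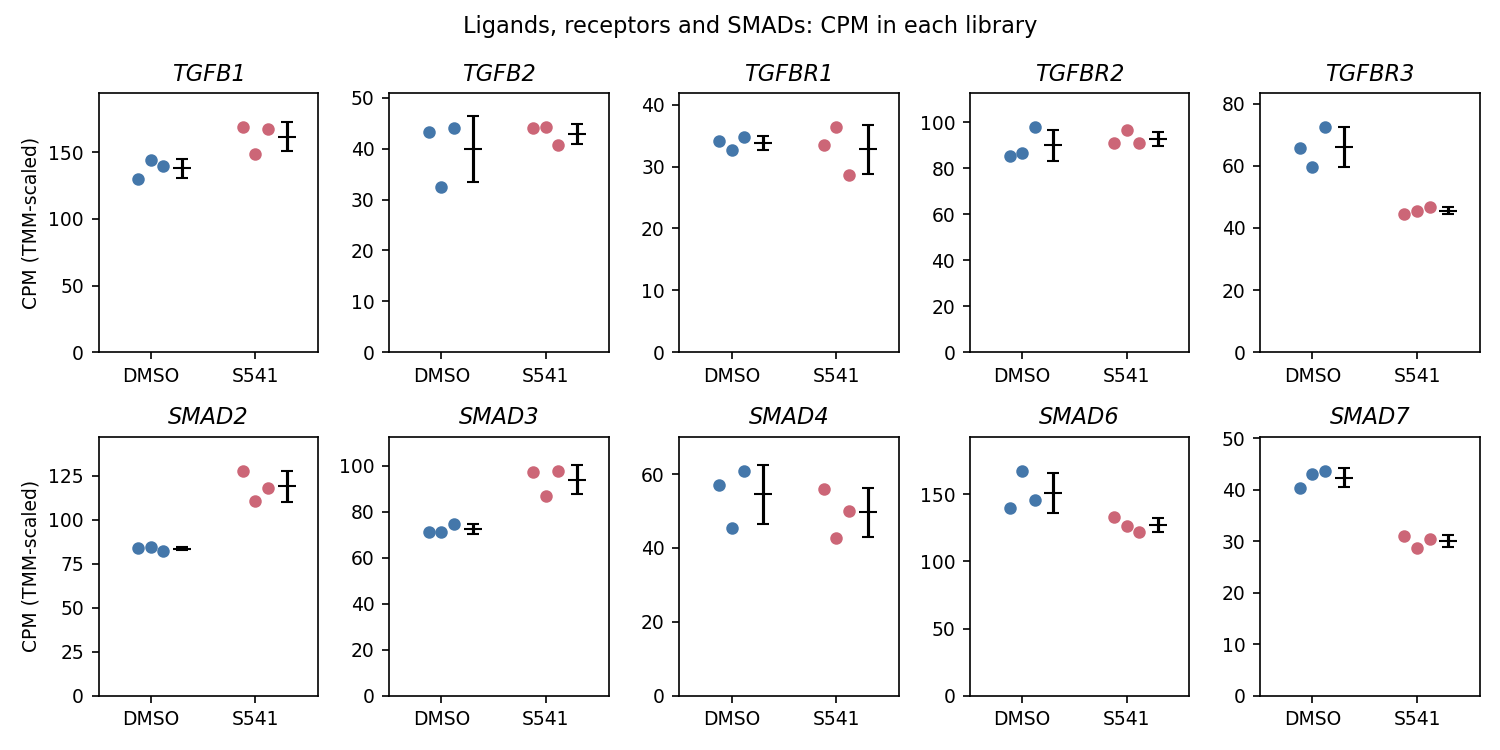
CPM with TMM scaling (vertical axes, each from 0) of the 10 genes in each library, with DMSO in blue and S541 in red. Points are libraries in the order of their replicate numbers and bars are mean ± SD of 3. *TGFB1*, *SMAD2* and *SMAD3* were higher in every S541 library than in any DMSO library, *TGFBR3*, *SMAD6* and *SMAD7* were lower, and the groups of the other 4 genes overlapped.

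The smallest spread among DMSO libraries was that of *SMAD2* (ENSG00000175387, hg38 chr18:47808957-47931146). It stood at 84.0, 84.6 and 82.6 CPM in DMSO replicates 1 to 3 and at 128, 111 and 118 CPM in S541 replicates 1 to 3. Every S541 library was above every DMSO library, and S541 replicate 1 was the highest. The mean rose from 83.7 ± 1.05 to 119 ± 8.55 CPM (SD, n = 3), a log2 fold change of 0.51 (SE 0.08, 95% interval 0.31 to 0.70, edgeR adjusted p = 0.0144), or 42.1%. With DMSO replicate 3 left out (adjusted p = 0.0640) or S541 replicate 1 left out (adjusted p = 0.0624) it no longer passed, while the log2 fold change stayed between 0.46 and 0.56 with any 1 library left out.

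*SMAD3* (ENSG00000166949, chr15:67063763-67195195), the receptor-regulated SMAD that binds DNA directly, rose as well. Its levels were 71.2, 71.2 and 74.9 CPM with DMSO and 97.5, 86.7 and 97.9 CPM with S541. The groups did not overlap, and S541 replicate 2, the lowest S541 library for *SMAD2*, was also the lowest here. The mean went from 72.4 ± 2.11 to 94.0 ± 6.32 CPM (SD, n = 3), a log2 fold change of 0.38 (SE 0.09, 95% interval 0.18 to 0.58, edgeR adjusted p = 0.0392), or 29.8%. This was the least stable of the 4 calls: it was lost whichever library was left out (adjusted p from 0.0608 to 0.132) and without the filter on low counts (0.0795), at log2 fold changes of 0.35 to 0.44.

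*SMAD4* (ENSG00000141646, chr18:51028394-51085045), the common partner of SMAD2 and SMAD3, stood at 57.2, 45.4 and 60.9 CPM with DMSO and at 56.1, 42.8 and 49.9 CPM with S541. The groups overlapped, and the lowest library of each was replicate 2. Its log2 fold change was −0.14 (SE 0.14, 95% interval −0.47 to 0.20, edgeR adjusted p = 0.618). The interval includes a fall close to that of *SMAD7* (−0.50), so the data do not show that *SMAD4* was unchanged.

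Of the inhibitory pair, *SMAD7* (ENSG00000101665, chr18:48919853-48950711), which blocks TGFBR1 and brings ubiquitin ligases to the receptor, fell. It stood at 40.3, 43.1 and 43.7 CPM with DMSO and at 30.9, 28.7 and 30.4 CPM with S541. No S541 library reached the lowest DMSO library. The mean went from 42.3 ± 1.80 to 30.0 ± 1.18 CPM (SD, n = 3), a log2 fold change of −0.50 (SE 0.09, 95% interval −0.71 to −0.28, edgeR adjusted p = 0.0208) and a change of −29.2%. It still passed with DMSO replicate 1 or 2 left out, but not on leaving out DMSO replicate 3 (adjusted p = 0.0891) or any S541 library (0.0741 for replicate 1, 0.0912 for 2 and 0.0590 for 3), at log2 fold changes of −0.53 to −0.46.

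*SMAD6* (ENSG00000137834, chr15:66702228-66782848), known mainly as an inhibitor of the BMP branch, was also lower in each S541 library but did not pass the test. Its levels were 140, 168 and 146 CPM with DMSO and 133, 127 and 122 CPM with S541. The highest S541 library lay just under the lowest DMSO library, and DMSO replicate 2 was well above the others of its group. The log2 fold change was −0.25 (SE 0.09, 95% interval −0.47 to −0.03, edgeR adjusted p = 0.152), and it was −0.17 without DMSO replicate 2. In absolute terms *SMAD6* remained the more abundant of the inhibitory pair, with 127 ± 5.47 CPM after S541 against 30.0 ± 1.18 CPM for *SMAD7*, and the order is the same per length.

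*SMAD6* and *SMAD3* lie on chromosome 15 with 280914 bases between them. The 250 bases before a RefSeq start of each (GRCh38.p14, plus strand) are shown because these neighbours, one inhibitory and one activating, stood on opposite sides of their DMSO levels. Capitals mark GTCTAGAC, the palindromic sequence that SMAD3 and SMAD4 are known to bind. The windows are chr15:66701986-66702235 for *SMAD6*, whose last 8 bases are exonic in GENCODE release 29, and chr15:67065352-67065601 for *SMAD3*. The *SMAD6* window ends 7 bases past the start of its deposited locus. That of *SMAD3* ends 1838 bases past the start and lies inside the locus, not before it.
SMAD6: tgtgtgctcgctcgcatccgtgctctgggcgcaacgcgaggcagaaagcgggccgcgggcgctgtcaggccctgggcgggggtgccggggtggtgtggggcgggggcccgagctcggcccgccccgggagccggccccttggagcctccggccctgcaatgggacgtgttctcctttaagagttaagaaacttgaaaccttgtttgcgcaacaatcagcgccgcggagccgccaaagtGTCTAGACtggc
SMAD3: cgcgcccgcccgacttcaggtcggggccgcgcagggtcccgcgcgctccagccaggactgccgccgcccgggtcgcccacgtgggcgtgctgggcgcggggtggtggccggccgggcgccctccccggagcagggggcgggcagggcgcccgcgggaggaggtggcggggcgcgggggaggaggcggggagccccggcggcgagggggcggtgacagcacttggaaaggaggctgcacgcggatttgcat
The *SMAD6* window holds 1 copy of GTCTAGAC, which begins 12 bases before the start, and the *SMAD3* window holds none. This pair was picked from a search of 6 motifs in 25 windows of the 10 genes, and the *SMAD6* window was the one with GTCTAGAC, while the other 4 windows of *SMAD3* held none either. Each motif was searched on both strands, and a match to CAGACA is also a match to CAGAC. In the RefSeq windows of 300 bases, which run past the start, the shares with a match were 0.202% for GTCTAGAC, 45.3% for CAGAC, 16.9% for CAGACA, 19.2% for GGCGCC, 36.0% for GGCTCC and 4.95% for TGACTCA. Of 35116 windows of 250 bases in the RefSeq table, 64 (0.182%) hold GTCTAGAC, which is its own reverse complement. The shorter CAGAC, searched on both strands and not contained in GTCTAGAC as written on either strand, occurs in 38.0% of windows and in neither of these 2. A match of letters describes the sequence and is no evidence of binding here.

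Among the receptors, *TGFBR3* (ENSG00000069702, chr1:91680343-91906335) fell. It stood at 65.9, 59.7 and 72.5 CPM with DMSO and at 44.4, 45.6 and 46.8 CPM with S541. The S541 libraries lay close together and all were below the lowest DMSO library, replicate 2. The mean went from 66.0 ± 6.38 to 45.6 ± 1.17 CPM (SD, n = 3), a log2 fold change of −0.53 (SE 0.10, 95% interval −0.76 to −0.30, edgeR adjusted p = 0.0206) and a change of −30.9%. Leaving out DMSO replicate 2 kept the call (adjusted p = 0.0138). Leaving out DMSO replicate 1 (0.0578) or 3 (0.0865), or any S541 library (0.0923 for replicate 1, 0.0875 for 2 and 0.0590 for 3), ended it, at log2 fold changes of −0.60 to −0.45.

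The signaling receptors did not follow it. *TGFBR2* (ENSG00000163513, chr3:30606502-30694142) stood at 85.5, 86.5 and 97.8 CPM with DMSO and at 91.0, 96.4 and 91.1 CPM with S541. All 3 S541 values lay inside the DMSO range, and the log2 fold change was 0.05 (SE 0.09, 95% interval −0.16 to 0.25, edgeR adjusted p = 0.795). *TGFBR1* (ENSG00000106799, chr9:99104038-99154192) stood at 34.1, 32.6 and 34.8 CPM with DMSO and at 33.4, 36.4 and 28.6 CPM with S541, so that the S541 libraries held both the highest and the lowest value. Its log2 fold change was −0.05 (SE 0.12, 95% interval −0.31 to 0.22, edgeR adjusted p = 0.849), and it turned to 0.045 without S541 replicate 3. Neither interval reaches the log2 fold change of *TGFBR3*.

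Both ligands were expressed. *TGFB1* (ENSG00000105329, chr19:41301587-41353911) stood at 130, 144 and 139.5 CPM with DMSO and at 169, 149 and 167 CPM with S541. All 3 S541 libraries were above the DMSO libraries, though S541 replicate 2 only slightly. The log2 fold change was 0.23 (SE 0.09, 95% interval 0.03 to 0.43), and the edgeR adjusted p of 0.152 did not pass. *TGFB2* (ENSG00000092969, chr1:218346235-218444619) stood at 43.4, 32.5 and 44.0 CPM with DMSO and at 44.0, 44.2 and 40.7 CPM with S541. The groups overlapped, with DMSO replicate 2 alone far below the rest. Its log2 fold change of 0.11 (SE 0.13, 95% interval −0.20 to 0.41, edgeR adjusted p = 0.674) turned to −0.025 without that library.

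**Figure D2:**
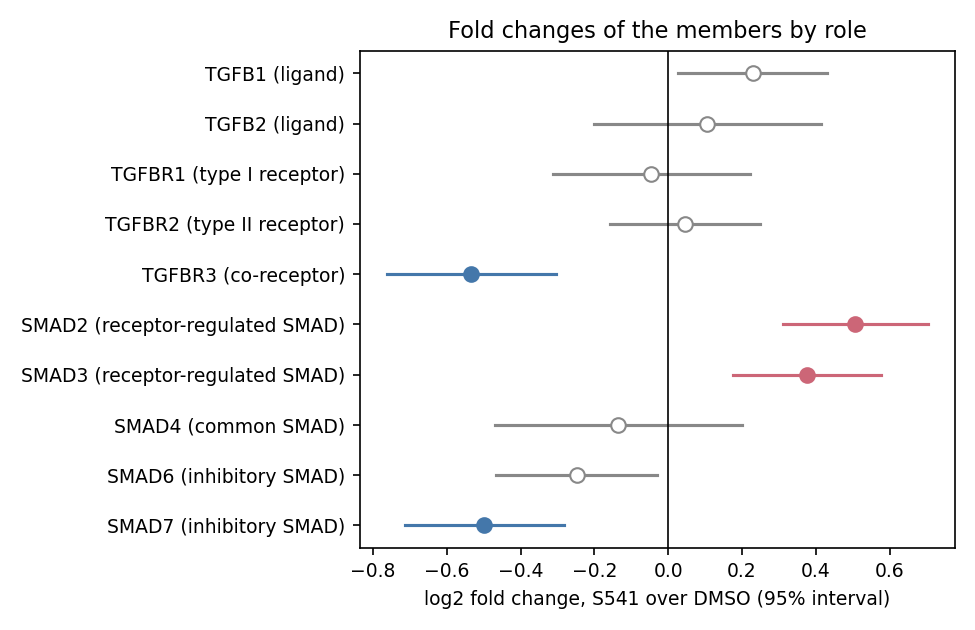
Log2 fold change of S541 over DMSO (horizontal axis) of the 10 genes, ordered by role, with 95% intervals from the edgeR fit. Filled points passed an adjusted p of 0.05, red for higher and blue for lower. *SMAD2* (0.51) and *SMAD3* (0.38) lie to the right of 0, *TGFBR3* (−0.53) and *SMAD7* (−0.50) to the left.

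In the authors' deposited table of edgeR results the log2 fold changes of these genes were close to the values above, but fewer passed. There *SMAD2* (0.51, Q-value 0.0194) and *TGFBR3* (−0.53, Q-value 0.0209) were under 0.05. In the same table *SMAD7* (−0.50, Q-value 0.0531) and *SMAD3* (0.37, Q-value 0.153) were not. The authors' deposited table adjusts over 28099 genes, of which 1199 had a Q-value under 0.05.

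Without the pair of libraries that stood apart on the second principal component, DMSO replicate 2 and S541 replicate 3, 2 of the 4 calls remained. *TGFBR3* had a log2 fold change of −0.62 (edgeR adjusted p = 0.0266) and *SMAD2* one of 0.52 (0.0420). *SMAD7* (−0.49, adjusted p = 0.0511) and *SMAD3* (0.33, 0.0954) did not pass. That fit was chosen after seeing the data and has 2 libraries a group.

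**Figure D3:**
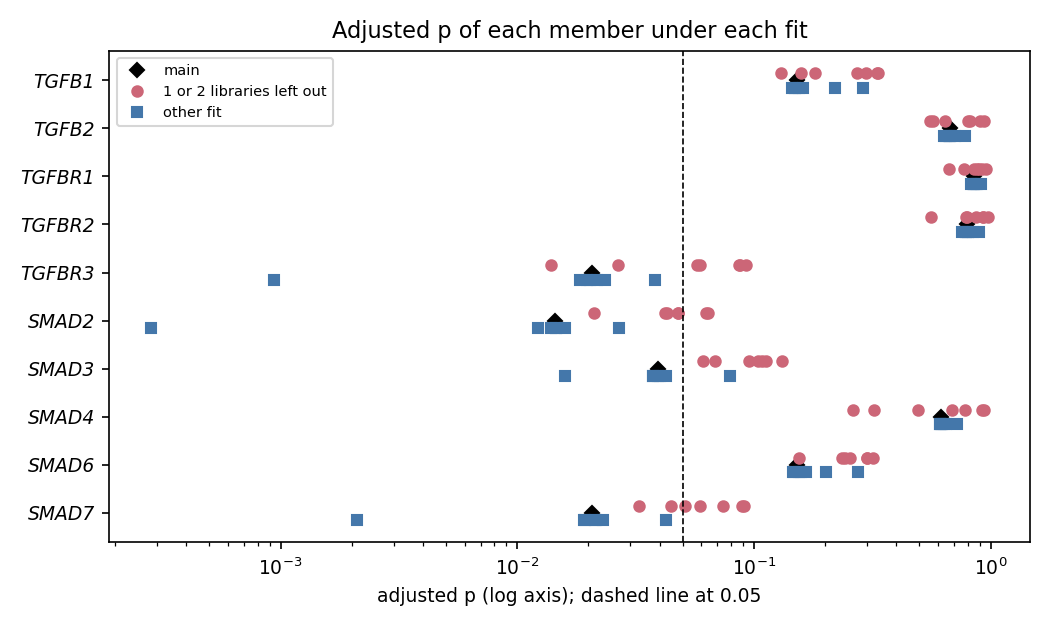
Adjusted p (horizontal log axis, dashed line at 0.05) of each of the 10 genes in the fit reported here (black diamonds), in 7 fits with 1 or 2 libraries left out (red) and in 7 fits with another tool, scaling or filter (blue). The fit with a replicate block is not drawn. Of the genes whose black diamond is left of the line, *SMAD2* has the most red points left of it and *SMAD3* has none, whereas no point of the other 6 genes is left of it.

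Levels of different genes can be compared per length, for which the deposited FPKM, a read count scaled to gene length and library total, was used. With DMSO, *TGFB1* led at 37.7 ± 1.79 FPKM (SD, n = 3), followed by *SMAD6* at 13.5 ± 1.18 and *TGFBR2* at 11.4 ± 0.944. A middle group held *TGFB2* at 6.22 ± 1.07, *SMAD3* at 5.45 ± 0.200, *SMAD7* at 4.42 ± 0.187 and *TGFBR3* at 3.56 ± 0.377 FPKM. The lowest were *SMAD4* at 2.12 ± 0.335, *TGFBR1* at 1.85 ± 0.0777 and *SMAD2* at 1.42 ± 0.00921 FPKM. The neighbours *TGFB2* and *SMAD3*, and *SMAD4* and *TGFBR1*, changed places between libraries and do not differ beyond their spread.

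With S541 the order in the deposited FPKM changed at its ends. *TGFB1* stayed first in each library, at 45.0 ± 3.06 FPKM (SD, n = 3). *SMAD6* (11.6 ± 0.688 FPKM) was second in all 3 DMSO libraries and in S541 replicate 1, and *TGFBR2* (11.996 ± 0.481 FPKM) was second in S541 replicates 2 and 3. *SMAD2* was the lowest of the 10 in every DMSO library and was eighth or ninth in the S541 libraries, at 2.06 ± 0.166 FPKM. *SMAD7* (3.19 ± 0.138 FPKM) and *TGFBR3* (2.51 ± 0.0251 FPKM) kept the sixth and seventh places in all 6 libraries.

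The length behind the FPKM matters for this order. The length that the deposited FPKM implies was 1.12 to 2.64 times the union of each gene's exons in GENCODE release 29, and for *SMAD2* it was 58135 bases against a union of 36366. With CPM per kilobase of the longest principal transcript in its place, *TGFB2* moved from the fourth to the seventh place in DMSO, *TGFBR3* from the seventh to the fifth and *SMAD3* from the fifth to the fourth, while the other 7 kept theirs. The fold change of a gene between groups does not depend on this length, but its place in the order does. On that alternative scale with S541, *SMAD2* (mean 3.45 CPM per kilobase) stayed the lowest, below *TGFBR1* (5.03). *SMAD6* (33.2) stayed second, above *TGFBR2* (20.1). The changes at the ends of the FPKM order were thus not seen with this length.

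A ratio of members within a library is free of that library's scaling, but its level depends on the gene lengths behind the FPKM. The inhibitory pair, *SMAD6* plus *SMAD7*, over the receptor-regulated pair, *SMAD2* plus *SMAD3*, was 2.46, 2.87 and 2.50 in FPKM with DMSO and 1.59, 1.70 and 1.505 with S541. The S541 ratios were all below the DMSO ratios. On the log2 scale the ratio went from 1.38 ± 0.12 to 0.68 ± 0.09 (SD, n = 3), a difference of −0.71 (2-sided exact permutation p = 0.1, adjusted over 6 ratios 0.15). With 3 against 3 libraries 0.1 is the smallest p this test can give. With CPM in place of FPKM the log2 difference of this ratio was −0.74.

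The co-receptor's ratio to the type II receptor, *TGFBR3* over *TGFBR2*, was 0.328, 0.293 and 0.315 with DMSO and 0.208, 0.201 and 0.219 with S541. Here too the groups were apart, with a log2 difference of −0.58 (exact permutation p = 0.1, adjusted 0.15). *SMAD4* over *SMAD2* plus *SMAD3* went from −1.71 ± 0.21 to −2.25 ± 0.11 in log2 (SD, n = 3), again without overlap and with the same exact p. *SMAD3* over *SMAD2* moved less, from 1.94 ± 0.06 to 1.81 ± 0.06 in log2 (SD, n = 3), and the 2 groups were still apart, also at an exact p of 0.1. The ratios *TGFB2* over *TGFB1* (log2 difference −0.11, exact p = 0.7) and *TGFBR1* over *TGFBR2* (−0.10, exact p = 0.5) overlapped between groups. Which member of a ratio changed is given by the tests of the single genes, not by the ratio. Every ratio whose groups were apart holds a gene that passed on its own, so the ratios are not separate evidence.

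**Figure D4:**
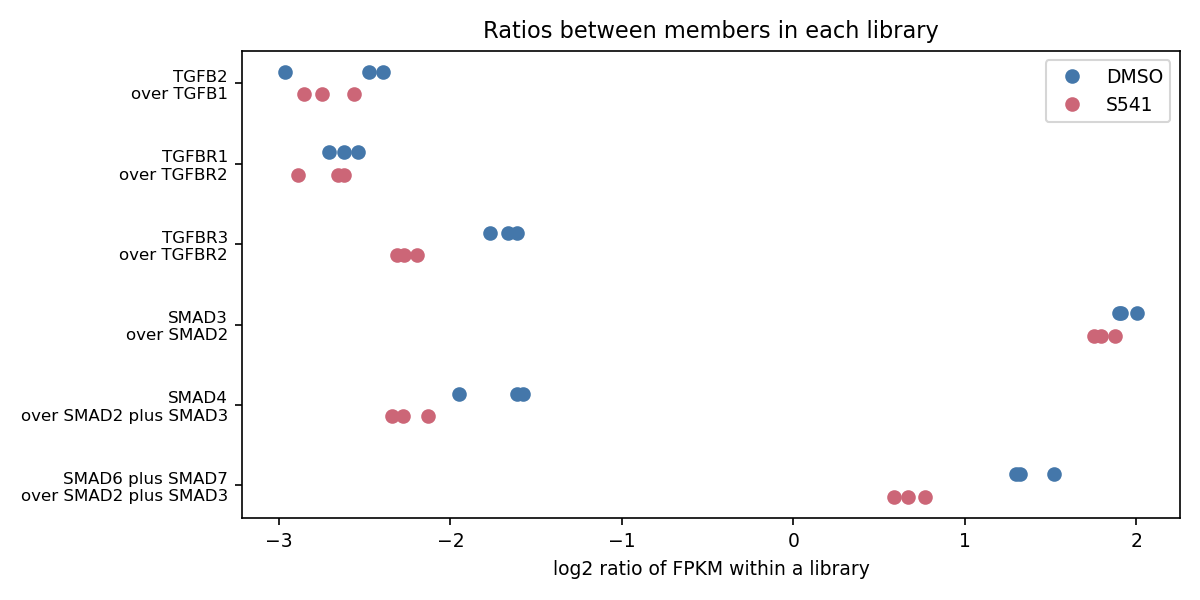
Log2 ratio of FPKM between members within each library (horizontal axis), with DMSO in blue and S541 in red, 3 libraries each. The groups are apart in 4 of the 6 ratios, each of which holds a gene that passed on its own. The gap is widest for *SMAD6* plus *SMAD7* over *SMAD2* plus *SMAD3*. Its S541 libraries lie between 0.59 and 0.77 and its DMSO libraries between 1.30 and 1.52.

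Some counts may include reads of overlapping genes, as no source used here says whether counting took strand into account. In GENCODE release 29 another gene model overlaps 26.6% of the exon bases of *TGFB2* on the same strand (*TGFB2-OT1*, with 4 to 8 counts per library), 7.37% of those of *SMAD4* on the same strand, 6.64% of those of *TGFB1* on the other strand (*HNRNPUL1*) and 2.00% of those of *SMAD3* on the other strand. No exon overlap was found for the other 6. Among the genes named below, 7.58% of the exon bases of *THBS1*, 5.41% of *NEDD4L* and 1.66% of *BMP8B* are overlapped on the other strand. The deposited locus of *SMAD7* ends before that of GENCODE release 29, and the loci of the other 9 match it.

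Around these 10 genes, 7 lists of the pathway's other genes held 120 tested genes together with the KEGG list below, of which 13 rose and 5 fell, where 4.02% of all tested genes rose and 4.17% fell. The number that passed was 10 to 17 of these genes when any 1 library was left out, and 10 without DMSO replicate 3, S541 replicate 1 or S541 replicate 2. Among 12 other ligands of the superfamily 2 rose and 1 fell, with a median log2 fold change of 0.18. *INHBA*, whose product forms activin A and signals through SMAD2 and SMAD3, had 7, 8 and 10 counts with DMSO and 85, 83 and 100 counts with S541. It was low in every DMSO library and higher by a wide margin in every S541 library. It rose from 0.519 ± 0.0743 to 5.87 ± 0.639 CPM (SD, n = 3), with a log2 fold change of 3.48 (SE 0.22, edgeR adjusted p = 0.000531). *GDF15*, a stress-induced divergent ligand, rose from 111 ± 14.97 to 280.4 ± 14.3 CPM (log2 fold change 1.34, adjusted p = 0.00172), and *BMP8B* fell from 14.4 ± 2.27 to 9.47 ± 0.159 CPM (−0.60, adjusted p = 0.0481). The *BMP8B* call was lost whichever library was left out, by limma-voom (adjusted p = 0.0525) and without the filter on low counts (0.0913), and reads may be shared with its near-identical neighbour *BMP8A*.

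Over all tested genes 4.02% rose and 4.17% fell. Of 13 genes for the storage and activation of latent TGF-beta, 1 rose and none fell, with a median log2 fold change of −0.18. That gene was *THBS1*, thrombospondin, which can release TGF-beta from its latent form, with 12.9, 18.0 and 16.8 CPM in DMSO and 30.8, 36.0 and 30.8 CPM in S541 (log2 fold change 1.03, edgeR adjusted p = 0.00860). Of 13 other receptors, with a median of 0.12, 1 rose and none fell, against the same shares of all tested genes. *ACVRL1*, a type I receptor known from endothelium, went from 0.564 ± 0.128 to 1.39 ± 0.175 CPM (log2 fold change 1.30, adjusted p = 0.0410), a low level at which the call was lost whichever library was left out and also by DESeq2 (adjusted p = 0.0960) and without the filter on low counts (0.0691). The 4 endothelial markers summed to 11.3 to 11.5 CPM with DMSO and 8.13 to 13.8 CPM with S541, and their part in the result was not tested.

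Of 15 genes for receptor-associated proteins, ubiquitin ligases and deubiquitinases, 2 rose and none fell. Among all tested genes 4.02% rose and 4.17% fell. The median log2 fold change of the 15 was 0.01. *NEDD4L*, a ubiquitin ligase known to target activated SMAD2 and SMAD3, stood at 36.8, 41.3 and 41.1 CPM with DMSO and 62.5, 62.5 and 61.7 CPM with S541 (log2 fold change 0.65, edgeR adjusted p = 0.00775). *STRAP*, a receptor-associated protein known to work with SMAD7, rose from 98.5 ± 5.05 to 136 ± 5.49 CPM (0.47, adjusted p = 0.0164), but not on leaving out DMSO replicate 1, S541 replicate 1 or S541 replicate 2, when the list's count was 1. Of 15 other SMADs and cofactors none passed in the edgeR test, 2 had an unadjusted p under 0.05, and 1 passed by DESeq2. Their median was −0.08, and in 4 the groups did not overlap. Over all tested genes 24.8% had an unadjusted p under 0.05 and in 31.1% the groups did not overlap. The most abundant were *TRIM33* (log2 fold change 0.14, adjusted p = 0.663) and *CREBBP* (−0.08, adjusted p = 0.606), and 1 gene of this list passed without DMSO replicate 1.

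Genes known to be induced by TGF-beta through SMAD3 and SMAD4 had 7 of 23 tested members that rose and none that fell, where 4.02% of all tested genes rose and 4.17% fell, and their median log2 fold change was 0.15. The list was chosen with earlier results of these data known, and it leaves out *SMAD7*, which fell. In 10 of the 23 every S541 library was higher than every DMSO library and in none was every one lower, against 15.9% and 15.2% of all tested genes. *SNAI1*, a repressor of E-cadherin, stood at 5.74, 7.68 and 6.29 CPM with DMSO and 13.95, 14.5 and 13.1 CPM with S541. The groups were apart, with a log2 fold change of 1.07 (SE 0.15, edgeR adjusted p = 0.00829). *COL4A1*, a basement membrane collagen, rose from 88.0 ± 9.16 to 158 ± 8.10 CPM (0.84, adjusted p = 0.00514).

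*THBS1* belongs to this list as well. Also risen, and named here after their values were seen, were *TGFBI* (log2 fold change 0.70), *TGM2* (0.61) and *COL4A2* (0.46), and leaving out DMSO replicate 1, DMSO replicate 3 or S541 replicate 3 ended the call of each. *TGFBI* and *TGM2* passed in 2 and *COL4A2* in 1 of the 6 leave-one-out fits. Other well-known targets did not pass, among them *CCN2* at 0.29 (edgeR adjusted p = 0.324), *PMEPA1* at 0.15 (0.661) and *SKIL* at −0.16 (0.577), also named after their values were seen. Like these, *SMAD7* is known to be induced by the pathway. The list's count was 4 without DMSO replicate 1, DMSO replicate 3 or S541 replicate 3.

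Of 8 genes known to be induced by BMP through SMAD1 and SMAD5, 2 fell and none rose. Of all tested genes 4.17% fell and 4.02% rose. The median log2 fold change of the 8 was −0.25. In 4 of the 8 every S541 library was lower than every DMSO library and in none was every one higher. The shares of all tested genes were 15.2% and 15.9%. *ID1* and *SMAD9* are among the 4 but did not pass. *ATOH8*, a transcription factor, stood at 42.5, 58.5 and 48.9 CPM with DMSO and 20.5, 24.8 and 25.8 CPM with S541 (log2 fold change −1.08, edgeR adjusted p = 0.00775). *ID3*, an inhibitor of differentiation, stood at 356, 556 and 384 CPM with DMSO and 227, 243 and 276 CPM with S541. DMSO replicate 2 was the highest for both genes, and neither overlapped between groups, a separation seen in 31.1% of all tested genes. *ID3* had a log2 fold change of −0.80 (adjusted p = 0.0311), a call lost without DMSO replicate 3 or any 1 S541 library, when 1 gene of the list passed.

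The KEGG TGF-beta signaling pathway of the deposited annotation lists 75 genes, *SMAD2*, *SMAD3* and *SMAD7* among them. Of 66 tested, 5 rose and 4 fell, with a median log2 fold change of 0.0034. *SMAD2* and *SMAD3* are among the 5 and *SMAD7* is among the 4. Over all tested genes 4.02% rose and 4.17% fell. Besides genes given above, *FST*, which encodes the activin-binding follistatin, rose from 2.89 ± 0.520 to 8.73 ± 0.143 CPM (1.59, edgeR adjusted p = 0.00435), *BMP5* fell from 1.91 ± 0.285 to 0.591 ± 0.0643 CPM (−1.67, adjusted p = 0.0129), and the transcription factor *SP1*, named after its values were seen, fell by 0.40 on the log2 scale. The count was 3 without DMSO replicate 3 or S541 replicate 1 and 4 without S541 replicate 2. Leaving out DMSO replicate 3 or any S541 library ended the calls of *BMP5* and *SP1*, and that of *SP1* also ended without DMSO replicate 1.

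**Figure D5:**
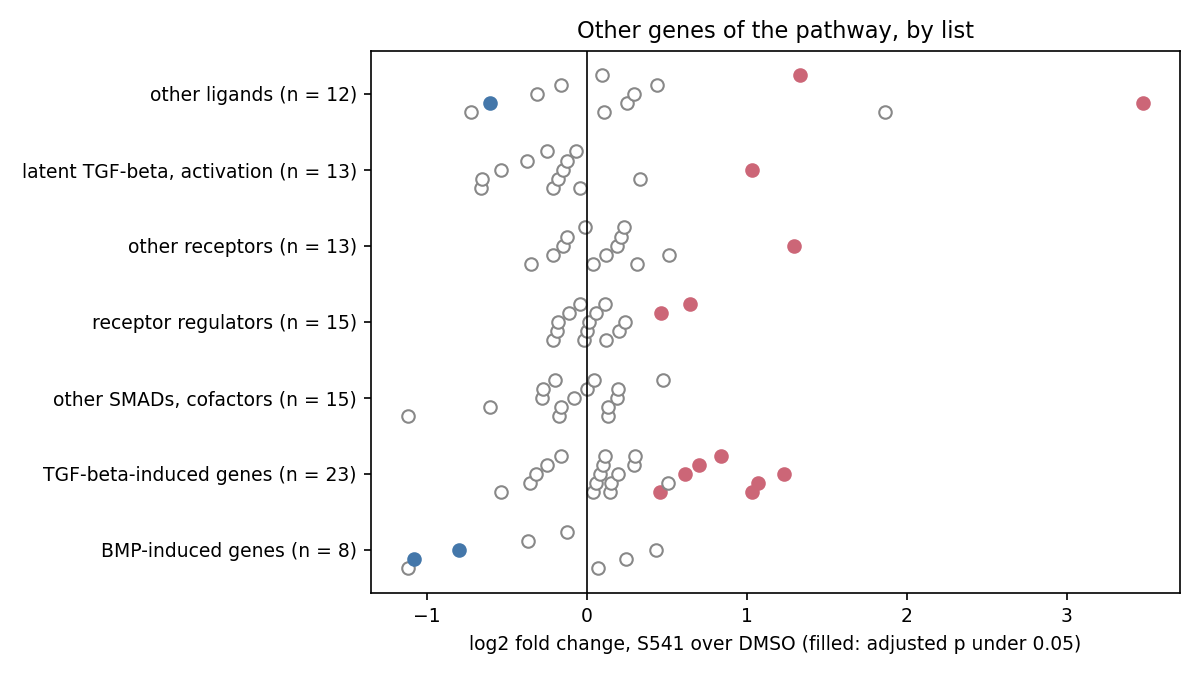
Log2 fold change of S541 over DMSO (horizontal axis) of every tested gene in 7 lists of the pathway, 1 point a gene and n the number tested. Filled points passed an adjusted p of 0.05, red for higher and blue for lower. The point farthest to the right is *INHBA* at 3.48, and in the row of TGF-beta-induced genes 7 of 23 points are filled, all red.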

How the data were processed

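RNA-seq of 6 A549 libraries (3 DMSO, 3 S541) was used. The authors deposited whole-number counts and FPKM per gene, and a table of log2 fold changes, p-values and Q-values. The genome build is hg38 and edgeR was the authors' tool, per the submitters' processing notes. No source used here names the aligner or the counter or says whether strand was used.

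The fit used edgeR 4.0.16 under R 4.3.3 (filterByExpr, TMM, glmQLFit, glmQLFTest, group as the only term), which gave 2-sided p-values adjusted by Benjamini-Hochberg over 15847 genes. Total counts of 13956648 to 17044139 and a common biological coefficient of variation of 0.163 set the precision. In counts simulated for this comparison (15558 genes run) 24.2% of 1.5-fold, 67.2% of 2-fold and 96.8% of 4-fold changes were called. The SE is the log2 fold change over the root of the F statistic. Ratios of the authors' FPKM were compared by exact permutation. Alternatives used DESeq2 1.42.0, limma 3.58.1 (voom), other scalings and filters, a replicate block and left-out libraries. Overlaps come from GENCODE 29, and promoters from RefSeq.

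Named genes are all 10 members and, in each list, up to 4 that passed with the largest fold changes and at least 1 CPM, or else the 2 most abundant; 1 gene that this rule names is not reported here. The members and lists were chosen with earlier results of these data known.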

Additional observations from a re-analysis of the deposited data

How the results depend on the processing

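The 10 genes kept the direction of their log2 fold change under 8 other fits, and with libraries left out 2 turned, both near 0: *TGFB2* (−0.025 without DMSO replicate 2 to 0.188 without DMSO replicate 3) and *TGFBR1* (−0.118 without S541 replicate 2 to 0.045 without S541 replicate 3, and 0.020 without DMSO replicate 2 and S541 replicate 3 together). *TRIM33* ranged from −0.030 without DMSO replicate 2 to 0.247 without DMSO replicate 3. The count of all genes that passed was 1298, and it was 753 without the filter on low counts, which tests more genes, and 349 (without S541 replicate 2) to 1330 (without DMSO replicate 2) with any 1 library left out. For the 10 genes the count of 4 became 0 to 3 (0 without DMSO replicate 3 or S541 replicate 1), and 2 without DMSO replicate 2 and S541 replicate 3 together. For the pathway lists 18 became 10 to 17. DESeq2 called 1790 genes in all, and the same 4 members, but not *ACVRL1*.

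The replicate numbers were not taken as pairs, since the submitters' processing notes give no block. Deviations of same-numbered libraries from their group means had correlations of 0.104, −0.0811 and −0.0783. With 3 libraries a group these correlations cannot decide whether the numbers are pairs. The largest correlation between a DMSO and an S541 library was 0.198, for DMSO replicate 2 and S541 replicate 3. A factor shared by these libraries was not tested. With a replicate block 392 genes passed in all, 9 in the pathway lists and 0 of the 10 members by edgeR. There the adjusted p was 0.0684 for *SMAD2*, 0.0727 for *TGFBR3*, 0.0894 for *SMAD7* and 0.127 for *SMAD3*, at nearly the same log2 fold changes.

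Each of the 10 members had at least 441 counts in every library. With 3 libraries a group, genes that did not pass are not shown to be unchanged. The test recovered 24.2% of simulated 1.5-fold changes. That share covers genes picked at random, with fewer genes changed than passed here, and is not the power for these 10.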
